A study of Mus musculus with 14 samples.

Results

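The comparison described here is the response to cold of brown adipose tissue (BAT) that lacks Clstn3b in adipocytes. It was read from 7 of the 14 RNA-seq libraries of the series, chosen by their labels and not by any measured value: 4 libraries of AdC3KO BAT after cold exposure and 3 of AdC3KO BAT kept warm. AdC3KO denotes male mice with an adipocyte-specific knockout of CLSTN3B, studied at 10 weeks of age. All animals had been held at 30 °C, near thermoneutrality for the mouse, for 2 weeks, and the cold groups then spent 6 h at 4 °C. The other 7 libraries are wild type (WT) males of the same age under the same regimen, 3 warm and 4 cold, and serve only to ask whether the response differs by genotype. No source used here names the driver of the knockout, the diet or the hour at which tissue was taken. Whether every library comes from its own animal is not stated either, and p-values therefore speak only of the spread between libraries, which may be technical.

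Brown fat makes heat. In the cold, sympathetic nerves release noradrenaline, which acts through beta-adrenergic receptors, cyclic AMP (cAMP) and protein kinase A to set free fatty acids from lipid droplets, to switch on UCP1, the protein that lets mitochondria burn fuel without making ATP, and to activate transcription factors of the CREB family. Clstn3b is an adipocyte product of the Clstn3 locus, a protein of the endoplasmic reticulum that has been placed at contacts with lipid droplets and in the sympathetic supply of thermogenic fat.

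Reads counted to genes totalled 22.49 to 29.03 M per AdC3KO library (M, counts in units of 1e6), with a mean of 24.4 ± 1.91 M at 30 °C (SD, n = 3) and 26.6 ± 1.73 M at 4 °C (SD, n = 4). Levels are given as counts per M (CPM) after TMM scaling by edgeR, library by library in the order 1 to 3 at 30 °C and 1 to 4 at 4 °C. Differences are log2 fold changes of 4 °C over 30 °C, with their standard error (SE) and an adjusted p from the quasi-likelihood F-test of edgeR over all 15949 tested genes. A gene is said to have risen or fallen only where that adjusted p was below 0.05. A lone number in parentheses after a gene is its log2 fold change in AdC3KO. On the first principal component, which held 76.7% of the variance of the 7 libraries, warm and cold libraries did not overlap. The list of brown adipocyte markers, 19 tested genes, had a summed level of 11975 to 15842 CPM at 30 °C and 31181 to 41190 CPM at 4 °C. It includes Adipoq, Fabp4, Pparg and Plin1, which other adipocytes express too, so the sum alone does not tell brown from white fat. Much of the higher sum in the cold came from Ucp1 and Dio2. Per length of transcript, Cox8b and Cidea were in places 2 and 5 of the nuclear protein-coding genes at 30 °C. The libraries of a group were not alike in every respect. Library 3 at 4 °C held 613 CPM in sum of skeletal muscle markers, of which 20 were tested. The other cold libraries held 49.6 to 57.3 CPM and those at 30 °C 95.2 to 159 CPM. Library 1 at 4 °C held 2038 CPM of 24 interferon response genes, against 1144 to 1334 CPM in the other cold libraries. Their part in the results was not tested beyond leaving these libraries out.

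Transcripts of the targeted locus were checked first. Clstn3 (chromosome 6, 124430759 to 124464794 on GRCm38) was at 17.3, 14.8 and 15.3 CPM at 30 °C and 53.8, 73.9, 77.9 and 57.6 CPM at 4 °C. The WT libraries were at 182, 210.3 and 228 CPM at 30 °C and 1195, 1125, 1148 and 970.04 CPM at 4 °C, so each AdC3KO library lay far below every WT library kept at the same temperature. The transcript that was left still rose with cold, with no overlap of the AdC3KO groups (log2 fold change 2.05, SE 0.14, adjusted p = 4.79e-09), and the difference from the WT log2 fold change of 2.42 was −0.37 (SE 0.19, adjusted p = 0.9999). The annotation has a single gene at this locus, so Clstn3b and full-length Clstn3 were not separated. Pex5, the neighbouring gene, which encodes the receptor that carries enzymes into peroxisomes, was at 192, 192 and 176 CPM at 30 °C and 604, 682, 731 and 634 CPM at 4 °C. Again the groups did not overlap (log2 fold change 1.83, SE 0.10, adjusted p = 5.77e-10). Gm44007, a predicted gene beside Pex5, had 6 counts over the 3 warm libraries and 747 over the 4 cold ones, at 5.03, 14.3, 10.8 and 2.44 CPM. It was below 1 CPM in each warm library and in each WT library (log2 fold change 6.74, SE 0.81, adjusted p = 4.33e-06).

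Most expressed genes differed between the warm and the cold libraries. Of the tested genes 4937 (31.0%) rose and 5113 (32.1%) fell. The counts given below for gene lists are to be read against these shares. A change of at least 2-fold was called for 2241 higher genes (14.1%) and 3177 lower genes (19.9%), and one of at least 4-fold for 702 and 1134. The warm and cold libraries did not overlap for 10224 genes (64.1%). Of the 10050 called genes, 9506 had groups that did not overlap. Falls were thus more frequent than rises at the 2-fold and 4-fold cuts. At 10-fold or more the counts were close, with 248 genes higher and 252 lower. The median log2 fold change over all tested genes was −0.06. With upper-quartile scaling it moved to −0.29, with 3737 genes higher and 6542 lower (36.4% of calls higher, against 49.1% with TMM), and with library totals alone it moved to −0.45, with 2985 higher and 7396 lower (28.8% higher). Small changes are therefore relative to the scaling, and gene groups whose balance turned with it are named as such below. The plot of all tested genes shows this spread.

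**Figure D1:**
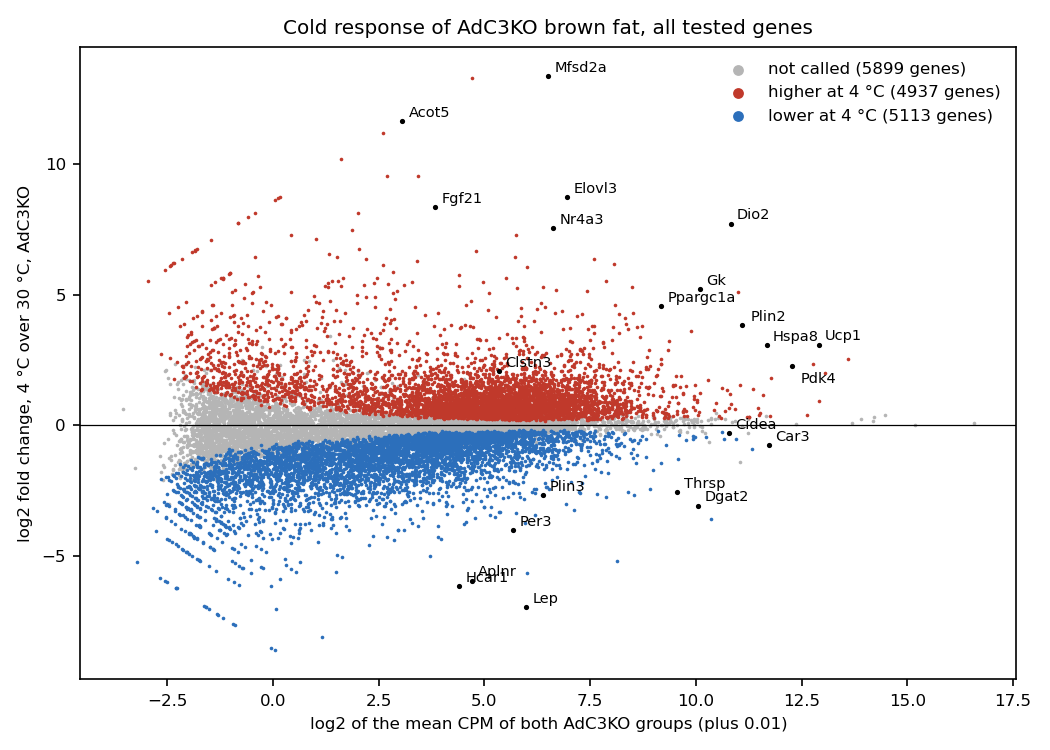
Log2 fold change of 4 °C over 30 °C in AdC3KO BAT (vertical axis) against the log2 of the mean CPM of the 2 groups (horizontal axis), 1 point per tested gene. Red points are the 4937 genes called higher, blue points the 5113 called lower and grey points the genes not called, and black points are labelled genes: Dio2 and Ucp1 stand out among abundant genes, Lep among those that fell.

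Ucp1, Dio2 and Ppargc1a, genes at the core of heat production, rose steeply. Ucp1 (chromosome 8, 83290352 to 83298452 on GRCm38) was at 1382, 1428 and 2045 CPM at 30 °C and 11772, 14364, 15736 and 13066 CPM at 4 °C. Every cold library was several times above every warm one, a fold of 8.49 (log2 fold change 3.09, SE 0.18, adjusted p = 8.16e-10). Per length of transcript, Ucp1 was in place 15 of the nuclear protein-coding genes at 30 °C and in place 1 at 4 °C. Dio2, which makes active thyroid hormone inside the brown adipocyte, was nearly silent in the warm and among the most abundant genes in the cold, at 15.5, 13.98 and 22.04 CPM at 30 °C and 3469, 4064, 3481 and 3453 CPM at 4 °C. That is a 211-fold rise (log2 fold change 7.72, SE 0.22, adjusted p = 9.66e-13), and library 2 was the highest of the cold libraries while the other 3 lay close together. Ppargc1a, the coactivator that drives mitochondrial and thermogenic genes, was at 53.3, 47.6 and 40.6 CPM at 30 °C and 897, 1444, 1278 and 817 CPM at 4 °C. Libraries 2 and 3 were the highest, and all 4 lay above the warm libraries (log2 fold change 4.56, SE 0.27, adjusted p = 3.88e-09).

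Other members of the thermogenic effector list moved in both directions or not at all. Among 27 tested effectors 12 rose and 2 fell (median 0.99, against −0.06 over all genes). The median was 0.35 without library 3 at 4 °C, which held muscle transcripts, and falls numbered 4 by the upper quartile and 7 by library totals. Elovl3, an elongase of very long fatty acids and a classic cold gene of BAT (chromosome 19, 46131897 to 46135694 on GRCm38), was at 0.425, 0.595 and 0.738 CPM at 30 °C and 180.03, 301, 322 and 189.9 CPM at 4 °C. The groups did not overlap, and cold libraries 2 and 3 were the highest (log2 fold change 8.73, SE 0.40, adjusted p = 1.56e-09). Gk, glycerol kinase, which lets the cell put glycerol back into triglyceride, was at 59.2, 59.2 and 53.3 CPM at 30 °C and 2023, 2327, 2189.9 and 1990.4 CPM at 4 °C. It was as even within each group as it was far apart between them (log2 fold change 5.22, SE 0.15, adjusted p = 1.07e-12). The falls were in genes of creatine supply, Gamt, an enzyme of its synthesis (−0.79), and Slc6a8, its transporter (−0.38), whose call was lost without library 1 at 30 °C or library 1 or 3 at 4 °C. The respiratory subunit Cox8b (0.01), whose transcript marks BAT, did not pass the test, although with library totals alone it was called lower (−0.38).

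Regulators of the brown adipocyte program were split. Of 31 tested coactivators and nuclear receptors, 17 rose and 8 fell (median 0.34). With library totals alone 12 rose and 10 fell, and without the 5 libraries of either genotype that carried muscle transcripts, which leaves 1 warm AdC3KO library, 11 rose and 5 fell. Irf4, a partner of PGC-1alpha, was at 13.7, 21.1 and 12.5 CPM at 30 °C and 123, 232, 778 and 76.8 CPM at 4 °C. Library 3 was the highest, and without it the log2 fold change was 3.20 against 4.26. The PGC-1 relative Pprc1 (2.02) and the Mediator subunit Med1 (1.37) also rose. Thra, a thyroid hormone receptor (−1.57), Esrrg, an estrogen-related receptor (−1.38), and Ebf2, which specifies brown adipocytes (−1.21), fell. The lineage genes Lhx8 (−1.55) and Zic1 (−1.08) fell as well. For Zic1 the call was lost without library 1 at 30 °C (−0.84) or library 4 at 4 °C (−0.95).

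**Figure D2:**
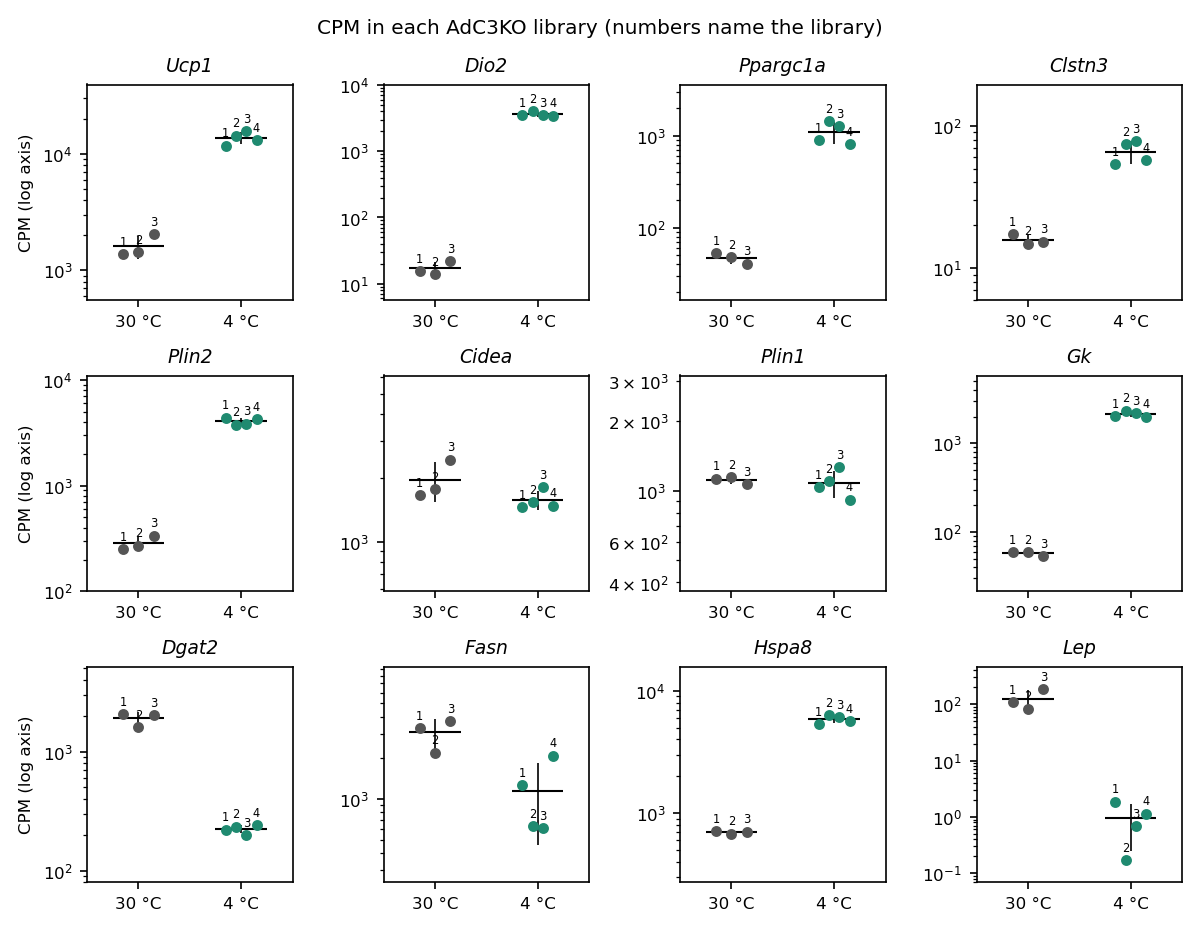
CPM of 12 genes (log axis) in the 3 warm (grey) and 4 cold (green) AdC3KO libraries, each point numbered by its library, with the group mean as a horizontal line and 1 SD as a vertical line. Ucp1, Dio2, Ppargc1a, Plin2, Gk and Hspa8 rose with no overlap, Dgat2 and Lep fell with no overlap, and Cidea and Plin1 overlapped.

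Among protein-coding genes, the largest rises reached genes that were close to undetected in the warm. Mfsd2a, a transporter of lysophosphatidylcholine (chromosome 4, 122946850 to 122961188 on GRCm38), had 1 count over the 3 warm libraries and 17023 over the 4 cold ones. The ratio of depth-scaled counts was 15274, and its 95% counting interval ran from 2741 to 603334. Acot5, which splits acyl-CoA in peroxisomes, went from 0 counts in all warm libraries to 1527 in the cold ones. With a floor of 3 counts for the warm group, it was at least 457-fold higher. Slco1a1, an organic anion transporter, had 2 counts in the warm and 1976 in the cold, a ratio of 887 with an interval of 245 to 7325. These intervals cover counting error only, and all warm counts of Mfsd2a and Slco1a1 lay in library 2. Leaving it out moved the fitted log2 fold change, which depends on the prior count here, from 13.39 to 15.09 for Mfsd2a and from 9.53 to 12.001 for Slco1a1. Nr4a3 (7.55), an orphan nuclear receptor, Kcne4 (6.65), a subunit of potassium channels, Pgf (6.45), a placental growth factor of the VEGF family, and Bean1 (6.44) followed, with Bean1 at 7.95 without library 3 at 30 °C. Dhrs9 (6.37), a dehydrogenase, Cyp4a32 (6.30), a fatty acid hydroxylase whose gene has near-identical relatives that can share reads, Hmox1 (6.18), which degrades heme, and the kinase Plk3 (6.06) completed the largest rises named by rule. Hmox1 was at 7.13, 7.14 and 7.42 CPM at 30 °C and 457, 412, 399 and 828 CPM at 4 °C. Cold library 4 was the highest, and every cold library exceeded every warm one.

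Counted in reads rather than in folds, the largest rises of protein-coding genes after Ucp1 were in 7 genes, among them Hspa8 and Plin2. Lpl, the lipase that frees fatty acids from circulating lipoproteins, was at 3264, 3694 and 3352 CPM at 30 °C and 12404, 14463, 16090.1 and 11530.2 CPM at 4 °C (log2 fold change 1.99, SE 0.15, adjusted p = 1.6e-08). Pdk4, which holds pyruvate dehydrogenase inactive and so spares glucose, was at 1945, 1928 and 1272 CPM at 30 °C and 8559, 7774, 8985 and 7375 CPM at 4 °C (log2 fold change 2.25, SE 0.21, adjusted p = 1.58e-07). For both genes the groups did not overlap. Fabp4 (0.92), a fatty acid carrier, Acsl1 (1.81), which activates fatty acids, and Gmpr (5.10), guanosine monophosphate reductase, were the other 3. Gmpr was at 121, 97.6 and 126 CPM at 30 °C and 3079.8, 4113, 4808 and 3779 CPM at 4 °C, and cold thus moved it from place 584 to place 9 among nuclear protein-coding genes per length of transcript.

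On the side of the falls, Lep stood out. Leptin, the satiety hormone of fat (chromosome 6, 29060220 to 29073877 on GRCm38), was at 108, 83.2 and 187 CPM at 30 °C and 1.86, 0.172, 0.684 and 1.14 CPM at 4 °C. Each warm library was far above each cold one, and cold library 2 was the lowest (log2 fold change −6.98, SE 0.59, adjusted p = 1.16e-06). Hcar1, the lactate receptor that restrains lipolysis (−6.18), Aplnr, the apelin receptor (−5.96), and Gdf5, a ligand of the bone morphogenetic protein (BMP) family (−5.64), fell next. Klhdc7a (−5.21), Rab17 (−5.04), a small GTPase that was at −6.51 without library 1 at 4 °C, the Wnt inhibitor Apcdd1 (−5.01), and Akap5 (−4.59), an anchor of protein kinase A, were also among the largest falls. In reads, the largest losses of protein-coding genes were in Coq8a, a kinase-like protein of coenzyme Q synthesis (−3.59), Car3, carbonic anhydrase 3 (−0.78), Dgat2 (−3.09), the secreted glutathione peroxidase Gpx3 (−0.94) and Thrsp, a regulator of lipogenesis (−2.56). For Car3 the call was lost without library 2 at 30 °C.

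Genes of signal reception moved in both directions. Among 8 tested adrenergic and purinergic receptors 2 rose (25%) and 3 fell (37.5%), with a median of −0.33. Of all tested genes 31.0% rose and 32.1% fell, so these counts alone do not set the list apart. Adrb3, the main beta receptor of mouse fat, was at 84.6, 103 and 81.9 CPM at 30 °C and 111, 31.3, 69.7 and 115 CPM at 4 °C. Its groups overlapped (log2 fold change −0.13, SE 0.36, adjusted p = 0.762). Adrb1 fell (−0.69), as did Adra1d (−2.96), an alpha receptor, and Adora1 (−2.61), an adenosine receptor that inhibits adenylyl cyclase, while Adora2a (1.59), an adenosine receptor that stimulates it, and Adra1a (0.79), which was not called with library totals, rose.

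Downstream, 16 of 35 genes of cAMP signalling and its feedback rose and 8 fell (median 0.77), or 16 and 13 by the upper quartile and 16 and 15 by library totals. Adcy3, an adenylyl cyclase, was at 67.5, 48.6 and 44.9 CPM at 30 °C and 614, 765, 826 and 706 CPM at 4 °C. Every cold library was far above every warm one (log2 fold change 3.76, SE 0.16, adjusted p = 5.3e-11), whereas another cyclase, Adcy9 (−2.90), fell. Phosphodiesterases, which destroy cAMP, rose in Pde7b (3.79), Pde3a (2.61), Pde4b (2.57), Pde4d (2.51) and Pde3b (1.30), and fell in Pde4a (−1.18) and Pde8a (−0.35). Of the anchors that place protein kinase A, Akap12 (4.25) rose and Akap1 (−1.28) and Akap5 fell. The catalytic subunit Prkaca (−1.24) fell and the regulatory subunit Prkar1a (1.44) rose. Arrb1 (−1.55), an arrestin, and Rgs2 (−1.33), which limits G protein signals, fell, and Gprc5a (5.85), an orphan receptor, rose from 0.239 to 14.001 CPM.

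In the CREB family 9 of 15 members rose and 3 fell (median 1.05), where 31.0% and 32.1% of all tested genes did. Sik1, a kinase induced by cAMP that shuts off CREB coactivators, was at 8.01, 9.11 and 12.6 CPM at 30 °C and 173, 208, 233 and 156 CPM at 4 °C. Warm and cold libraries were far apart (log2 fold change 4.28, SE 0.22, adjusted p = 1.13e-09), and Crem (2.17), Atf2 (1.41), Sik3 (1.71) and Sik2 (1.10) rose too. Creb3l1 (−1.43), Creb3l2 (−0.93) and the coactivator Crtc1 (−0.59) fell. Creb1 itself (0.18) did not pass the test.

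Immediate early genes, the first to answer such signals, mostly rose at 6 h (median 1.32). Of 39 genes, 29 rose (74.4%) and 3 fell (7.7%), where 31.0% and 32.1% of all tested genes did. Nr4a3 was at 1.37, 1.15 and 0.591 CPM at 30 °C and 177, 221, 226 and 163 CPM at 4 °C (log2 fold change 7.55, SE 0.59, adjusted p = 5.12e-07). Atf3, a stress-induced repressor, was at 1.01, 2.08 and 2.33 CPM at 30 °C and 91.8, 92.4, 86.5 and 83.8 CPM at 4 °C (log2 fold change 5.63, SE 0.32, adjusted p = 7.3e-09). Both were close to undetected in the warm and well above that in each cold library. Gadd45g (5.15), a growth arrest gene, Maff (4.46), a small Maf factor, Dusp1 (3.70) and Dusp6 (3.67), phosphatases of MAP kinases, and Cebpb (2.94), an adipogenic factor, followed. The members with lower folds included Fos (2.48) and Junb (1.08), while Egr1 (0.61) and Jun (0.71) missed the threshold, which both passed by DESeq2 (0.63 and 0.73). The falls were Gadd45b (−2.02), Gadd45a (−1.09) and Klf10 (−0.36). The last 2 calls were lost without library 2 at 30 °C, and that of Gadd45a also without library 3 at 30 °C or library 2, 3 or 4 at 4 °C.

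CREB binds the cyclic AMP response element TGACGTCA. RefSeq promoter windows on GRCm38.p6, from 250 bases before to 50 after a start, were searched for these letters on both strands. The full element lay in a window of 3.42% of the 11302 tested genes that had one, of 5.03% of the 437 that rose at least 4-fold and of 2.34% of the 684 that fell at least 4-fold. Of 23 immediate early, cAMP or coactivator genes that rose at least 4-fold and had a window, 2 held it. They are shown with the element in capitals, 5′ to 3′ on the gene's strand. Maff has further starts whose windows lack the full element, and genes with several windows had more chances to hold it. Positions count from 1 at the transcription start, with −1 the base before it.
Maff, chr15:79347471-79347518, + strand, element from −29: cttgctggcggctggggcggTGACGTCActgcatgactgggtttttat
Dusp1, chr17:26508588-26508635, − strand, element from −143: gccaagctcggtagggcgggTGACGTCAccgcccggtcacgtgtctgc
Nr4a3, Atf3 and Ppargc1a had no full element in their windows, which says only that these letters are not within this distance of the start. Maff was at 5.53, 6.84 and 7.35 CPM at 30 °C and 144, 132, 191 and 113 CPM at 4 °C (log2 fold change 4.46, SE 0.25, adjusted p = 4.18e-09). Dusp1 was at 20.2, 12.9 and 22.7 CPM at 30 °C and 223, 254, 277 and 214 CPM at 4 °C (log2 fold change 3.70, SE 0.20, adjusted p = 1.38e-09). Both stood clear of their warm libraries.

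**Figure D3:**
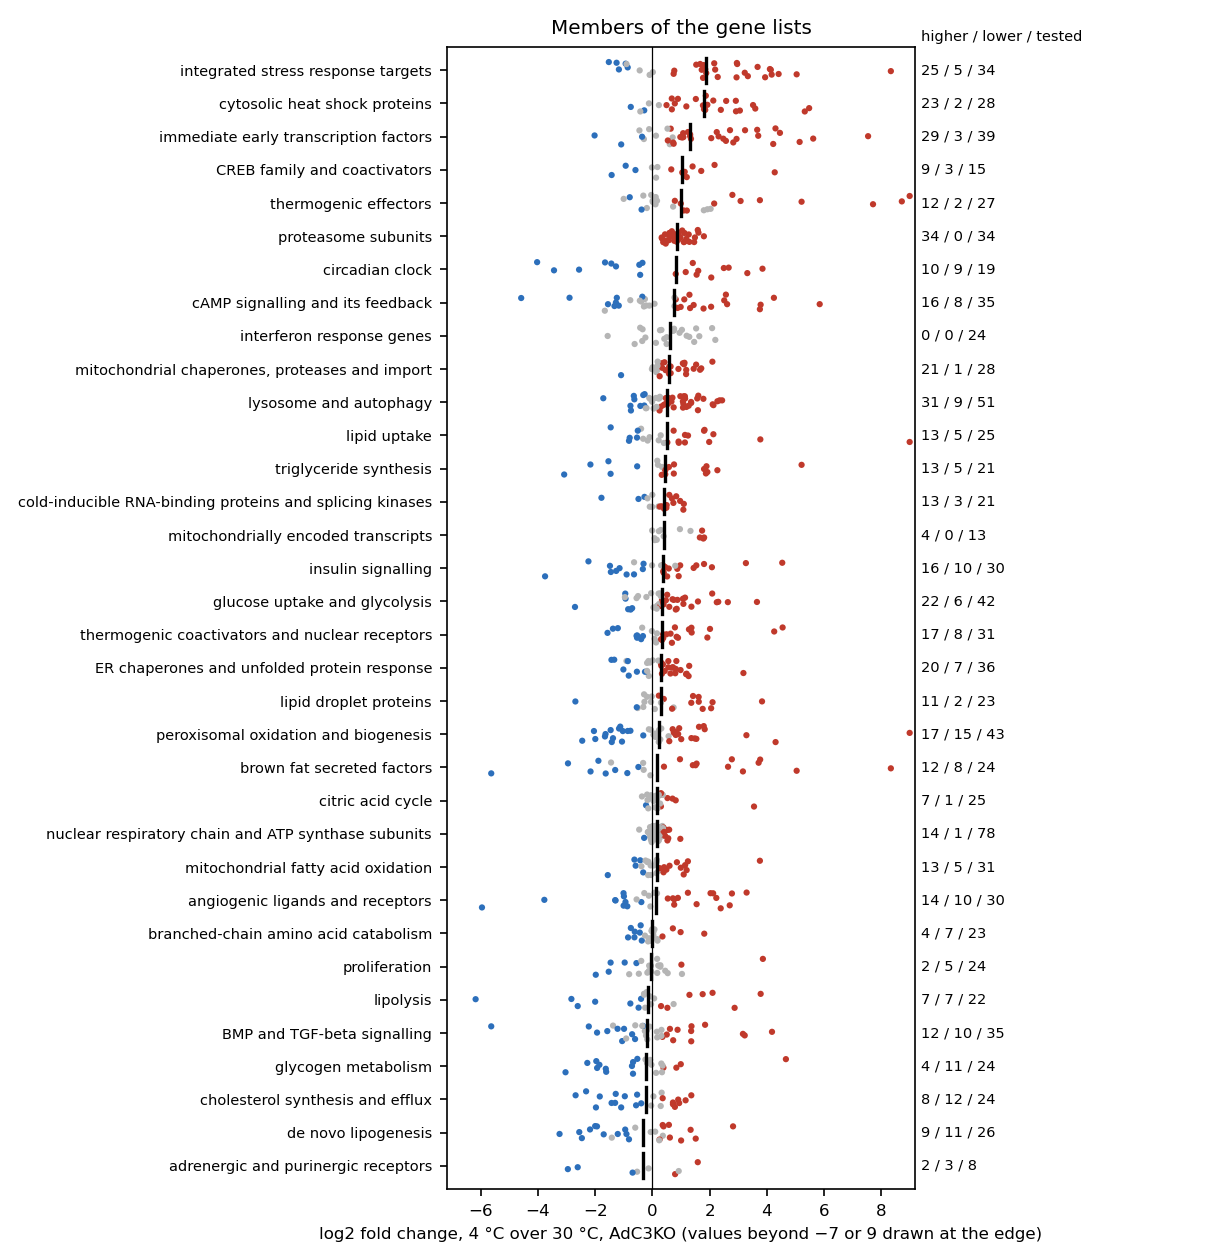
Log2 fold change of 4 °C over 30 °C in AdC3KO for each tested member (point) of 34 gene lists, with the list's median as a black bar and the numbers of members higher, lower and tested at the right. Red is called higher, blue called lower and grey not called. Every proteasome member rose, clock genes split to both sides and respiratory chain subunits lay close to 0.

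For the lipid droplet, the site where Clstn3b has been placed, transcripts of 11 of 23 tested genes rose and 2 fell (median 0.30). These counts were 9 and 6 by the upper quartile and 9 and 8 by library totals. The 11 rises include what was left of the transcript of Clstn3, the targeted gene itself. Falls numbered 4 without library 1 at 30 °C or WT library 1 at 4 °C and 5 without library 3 at 4 °C. Plin2, a droplet coat that accompanies fatty acid flux, was at 249.97, 271 and 336 CPM at 30 °C and 4403, 3783, 3858 and 4266 CPM at 4 °C. The rise was 14.3-fold with no overlap (log2 fold change 3.84, SE 0.16, adjusted p = 3.52e-11). Abhd5 (2.10), the activator of the lipase ATGL, and Hilpda (1.76), its small inhibitor, rose together with Plin4 (1.42) and Fitm2 (1.62), a droplet biogenesis protein. Plin3, a coat of nascent droplets, went the other way, at 149, 132 and 155 CPM at 30 °C and 23.2, 21.3, 21.9 and 23.4 CPM at 4 °C. Cidea, which promotes droplet fusion, was at 1656, 1773 and 2436 CPM at 30 °C and 1455, 1539, 1805 and 1477 CPM at 4 °C, with overlapping groups (log2 fold change −0.32, SE 0.14, adjusted p = 0.0567). It became a called fall without library 1 at 30 °C (−0.42), library 3 at 4 °C (−0.37) or WT library 1 at 4 °C (−0.30), and with upper-quartile scaling (−0.55) or library totals (−0.71). Cidec, at 566, 636 and 648 CPM at 30 °C and 608, 627, 767 and 614 CPM at 4 °C, had a log2 fold change of 0.08 (SE 0.19), and Plin1, the coat that guards the droplet, of −0.05 (SE 0.16), which was −0.44 and called with library totals. S100b, which encodes a calcium-binding protein tied to innervation, was at 52.4, 49.3 and 75.1 CPM at 30 °C and 50.3, 52.2, 55.9 and 73.6 CPM at 4 °C, with overlapping groups (log2 fold change −0.02, SE 0.22, adjusted p = 0.933).

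Of 22 lipolysis genes 7 rose and 7 fell (median −0.14), or 6 and 12 by the upper quartile and 5 and 14 by library totals. At 31.8% each way, the main counts were close to the shares over all tested genes, 31.0% and 32.1%. Pnpla2, which encodes ATGL, was at 2651, 2453 and 2812 CPM at 30 °C and 1899.8, 2089, 2584 and 2051 CPM at 4 °C. It missed the threshold (log2 fold change −0.29, SE 0.13, adjusted p = 0.0628), and passed it as a fall without library 3 at 4 °C (−0.37) or WT library 1 at 4 °C (−0.28), and under both other scalings (−0.53 by the upper quartile and −0.69 by library totals). Lipe, hormone-sensitive lipase (−0.77), and Pnpla3 (−2.002) fell. Receptors that restrain lipolysis fell, namely Hcar1, Hcar2, the niacin receptor (−2.83), and Adora1. Npr3, the clearance receptor of natriuretic peptides, rose instead and was at 150.4, 112 and 202 CPM at 30 °C and 1155, 1218, 1002 and 1171 CPM at 4 °C (log2 fold change 2.88, SE 0.32, adjusted p = 5.13e-06).

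Of 21 genes that rebuild triglyceride 13 rose and 5 fell (median 0.45), with 7 and 5 by upper-quartile scaling and 6 and 5 by library totals. Without the libraries with muscle transcripts 7 rose and 4 fell. The first step of glycerolipid synthesis was higher in Gpam (1.89) and Gpat4 (1.87), and Lpin3 (1.92), a phosphatidate phosphatase, rose. The last step was split between its enzymes. Dgat1 was at 155, 172 and 173 CPM at 30 °C and 618, 929.8, 987 and 691 CPM at 4 °C (log2 fold change 2.27, SE 0.15, adjusted p = 2.21e-09). Dgat2, in contrast, was at 2069.7, 1613 and 2032 CPM at 30 °C and 222, 234, 199.8 and 241 CPM at 4 °C (log2 fold change −3.09, SE 0.16, adjusted p = 2.3e-10). The libraries did not overlap for either gene, and the 2 enzymes moved in opposite directions. Gpd1l (−2.17) and Gk5 (−1.46), relatives of glycerol phosphate dehydrogenase and of Gk, fell.

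Of 26 lipogenesis genes 11 fell and 9 rose (median −0.33), where 32.1% and 31.0% of all tested genes did. These counts were 13 and 6 by the upper quartile, 14 and 3 by library totals, and 10 and 5 without the libraries with muscle transcripts. Srebf1, the transcription factor that drives fatty acid synthesis, was at 213, 251 and 287 CPM at 30 °C and 29.3, 23.2, 23.8 and 28.997 CPM at 4 °C (log2 fold change −3.25, SE 0.23, adjusted p = 3.83e-08). Thrsp was at 1102, 1215 and 1559 CPM at 30 °C and 259.99, 170.3, 188 and 259 CPM at 4 °C (log2 fold change −2.56, SE 0.30, adjusted p = 6.93e-06). Each fell in every cold library. Mlxipl, which encodes the glucose sensor ChREBP (−1.94), Mid1ip1 (−2.18), which activates acetyl-CoA carboxylase, and Scd2 (−2.47), a desaturase, fell too. Fasn, fatty acid synthase, was at 3293, 2187 and 3726 CPM at 30 °C and 1264, 636, 613 and 2074 CPM at 4 °C. Cold libraries 2 and 3 were the lowest and library 4 the highest, and every cold library lay below every warm one. The gene missed the threshold in the main fit (log2 fold change −1.42, SE 0.59, adjusted p = 0.0567). It passed as a fall without library 4 at 4 °C (−1.86) or WT library 3 at 30 °C (−1.42), but not without any other single library. Under both other scalings it passed too (−1.65 by the upper quartile and −1.78 by library totals). The same held by DESeq2 (−1.39), with a filter at 5 CPM (−1.52), without robust estimation (−1.42) and in the AdC3KO libraries alone (−1.43, or −1.93 with the replicate block). Scd1, the most abundant nuclear protein-coding transcript per length at 30 °C, did not pass (log2 fold change 0.24, SE 0.47, adjusted p = 0.678). Elongases and desaturases rose in Elovl6 (1.004) and Fads3 (1.52).

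Genes that bring fat into the cell rose in 13 of 25 cases and fell in 5 (median 0.52), where 31.0% and 32.1% of all tested genes did. Besides Lpl and Mfsd2a, Lipg, endothelial lipase (3.78), Slc27a2, a fatty acid transporter (2.13), Cd36 (1.14) and Gpihbp1 (1.14), which carries lipoprotein lipase across capillaries, rose. Scarb1, the receptor of high-density lipoprotein (−1.46), and Lmf1, which matures lipases (−0.79), fell. The count of 5 falls was 8 by either other scaling, 2 without the libraries with muscle transcripts (with 9 rises), and 3 with the replicate block or when library 1 or 2 at 30 °C or library 1, 2 or 4 at 4 °C was left out.

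Mitochondrial fatty acid oxidation genes were nearly level, with 13 of 31 higher and 5 lower (median 0.15), and this balance turned with the scaling, to 9 and 10 by the upper quartile and 8 and 16 by library totals, with 7 and 3 without the libraries with muscle transcripts. Single genes moved by more. Acot2, a mitochondrial thioesterase and a close relative of Acot5 with which it may share reads, was at 37.3, 31.1 and 40.4 CPM at 30 °C and 465, 443, 566 and 492 CPM at 4 °C (log2 fold change 3.76, SE 0.15, adjusted p = 3.52e-11). Slc25a20, the carnitine carrier (1.10), and Etfdh, which hands electrons to the respiratory chain (1.20), rose. In peroxisomes 17 of 43 genes rose and 15 fell (median 0.22), or 17 and 20 by library totals. The main counts were 39.5% and 34.9% of the list, against 31.0% and 32.1% of all tested genes. Ehhadh, a bifunctional enzyme of peroxisomal oxidation, was at 45.6, 41.99 and 16.9 CPM at 30 °C and 543, 704, 912 and 607 CPM at 4 °C (log2 fold change 4.31, SE 0.57, adjusted p = 4.93e-05). Acot4 (3.29), a peroxisomal thioesterase, and Pex13 (1.63) rose with Pex5, while the carnitine acyltransferase Crot (−1.997), the transporters Abcd2 (−1.66) and Abcd4 (−2.04), and the import factor Pex26 (−2.45) fell.

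Among genes of glucose use, 22 of 42 rose and 6 fell (median 0.35), or 15 and 10 by library totals. Slc2a1, the insulin-independent glucose transporter, was at 5.76, 5.39 and 5.91 CPM at 30 °C and 52.02, 31.5, 33.1 and 25.1 CPM at 4 °C (log2 fold change 2.64, SE 0.34, adjusted p = 1.52e-05). Slc2a4, the insulin-dependent one, was at 335, 326 and 428 CPM at 30 °C and 200.4, 205, 235 and 217 CPM at 4 °C (log2 fold change −0.76, SE 0.11, adjusted p = 1.66e-05). The first rose and the second fell, each without overlap. Hk2 (1.59), Pfkp (2.30) and Aldoa (1.37) of glycolysis and Slc16a3 (3.66) and Slc16a1 (1.14), lactate transporters, rose, and Pfkfb1 (−2.71), which makes the activator of phosphofructokinase, and Pfkm (−0.94) fell. Glycogen genes fell in 11 of 24 cases and rose in 4 (median −0.21), or 9 and 2 without the libraries with muscle transcripts. Ppp1r3b, the subunit that brings a phosphatase to glycogen, was at 208, 179.7 and 269 CPM at 30 °C and 29.6, 27.98, 23.8 and 24.95 CPM at 4 °C (log2 fold change −3.04, SE 0.16, adjusted p = 8.55e-10), and Pygb (−1.63), a phosphorylase, and Epm2a (−2.28), the glycogen phosphatase laforin, fell with it.

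The mitochondrial core changed little. Of 78 nuclear subunits of the respiratory chain and ATP synthase 14 rose and 1 fell (median 0.16), with a span of log2 fold change from −0.46 to 0.98. Even this direction turned with the scaling, to 3 and 8 by the upper quartile and 1 and 34 by library totals, and single libraries moved the count of rises to between 8 (without library 1 at 30 °C) and 29 (without library 3 at 30 °C), with 9 without library 2 at 30 °C and 24 without library 1 at 4 °C. DESeq2 gave 22 rises and no fall. Cycs, cytochrome c, was the largest rise (0.98). In the citric acid cycle 7 of 25 genes rose and 1 fell (median 0.16), or 4 and 7 by the upper quartile and 3 and 15 by library totals, and 4 rose without library 2 at 30 °C. Without the libraries with muscle transcripts 1 respiratory chain subunit rose and 5 fell, and 3 citric acid cycle genes rose and 1 fell. Got1, an aminotransferase of the malate-aspartate shuttle, rose from 12.7 to 149 CPM (log2 fold change 3.56, SE 0.12, adjusted p = 5.48e-12). Mitochondrially encoded transcripts made up 23.3% to 24.7% of gene counts at 30 °C and 20.8% to 23.9% at 4 °C. Of their 13 messengers 4 rose and none fell (median 0.39), namely mt-Atp6 (1.81), mt-Co3 (1.78), mt-Nd4l (1.74) and mt-Nd3 (1.66), while the far more abundant mt-Cytb (−0.01) did not pass. The ATP synthase subunit gene mt-Atp6 was at 18.6, 15.6 and 18.97 CPM at 30 °C and 98.7, 106, 26.4 and 17.3 CPM at 4 °C, so that cold libraries 1 and 2 were high and the groups overlapped (log2 fold change 1.81, SE 0.65, adjusted p = 0.0321). Overlap was found for the other 3 as well, and mitochondrial genes have nuclear copies that can share their reads. The calls of mt-Atp6, mt-Co3 and mt-Nd4l were lost by either other scaling, with the replicate block (adjusted p 0.0721 to 0.0767), or without any 1 of the warm libraries or of libraries 1 and 2 at 4 °C, and that of mt-Nd4l also without WT library 3 at 30 °C or WT library 2 or 4 at 4 °C. The count of rises was then 1 to 3, and mt-Nd3 kept its call in each of these fits. It was 6 without library 4 at 4 °C and 0 without the libraries with muscle transcripts, and library totals gave 2 falls, mt-Cytb among them (−0.40). Ribosomal RNA of mitochondria was higher in the cold too. Its larger gene mt-Rnr2, chosen after its values were seen, was at 3177, 2857 and 5076 CPM at 30 °C and 20676, 13600, 14256 and 36014 CPM at 4 °C (log2 fold change 2.51, SE 0.36, adjusted p = 3.06e-05).

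Targets of the integrated stress response (ISR), in which ATF4 reprograms amino acid metabolism, rose in 25 of 34 cases and fell in 5 (median 1.87), or 25 and 9 by library totals. The main counts were 73.5% and 14.7% of the list, against 31.0% and 32.1% of all tested genes. Atf4 was at 43.7, 46.2 and 55.8 CPM at 30 °C and 680.2, 569, 579.9 and 660.2 CPM at 4 °C. Fgf21, a hormone of fat and liver, had 7 counts over the warm libraries and was at 31.3, 22.8, 22.2 and 37.6 CPM in the cold (log2 fold change 8.34, SE 0.56, adjusted p = 2.83e-08), with 8.96 without library 3 at 30 °C. Gdf15, a stress hormone (5.05), Sesn2, a nutrient sensor (4.17), Mthfd2, of mitochondrial folate metabolism (4.42), and the amino acid transporter genes Slc3a2 (4.11), Slc7a1 (4.14) and Slc7a11 (3.94) rose, as did the aminoacyl-tRNA ligases Nars (1.88), Aars (1.85) and Gars (1.67). Ddit3, which encodes CHOP, was at 17.4, 20.3 and 25.2 CPM at 30 °C and 18.7, 12.9, 10.5 and 19.5 CPM at 4 °C. It did not pass the test (log2 fold change −0.44, SE 0.25, adjusted p = 0.144), although it was called lower by the upper quartile (−0.68) and library totals (−0.82). The falls included Nupr1 (−1.17), Eif4ebp1 (−0.94) and Phgdh (−0.86), a serine synthesis enzyme.

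ATF4 and C/EBP proteins bind a composite element, searched as TGATGNAAN on both strands. Of 27 tested ISR genes with a promoter window 11 held it (40.7%), against 2.90% of all tested genes with a window. The genes were listed as targets of this response, so the comparison of shares is no test of an excess. Of these 11 genes 8 rose, 1 fell and 2 were not called, while 12 of the 16 without it rose. The following stretches, chosen after the values were seen, show the element in capitals in 4 of the genes that rose.
Fgf21, chr7:45615602-45615650, − strand, element from −140: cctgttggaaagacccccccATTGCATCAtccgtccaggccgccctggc
Slc7a11, chr3:50443633-50443699, − strand, elements from −66 and −48: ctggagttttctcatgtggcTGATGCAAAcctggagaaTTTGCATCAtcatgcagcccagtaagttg
Chac1, chr2:119351028-119351076, + strand, element from −194: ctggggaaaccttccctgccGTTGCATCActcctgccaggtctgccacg
Asns, chr6:7693204-7693252, − strand, element from −23: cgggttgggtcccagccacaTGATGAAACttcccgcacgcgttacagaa
Slc7a11 carries 2 copies, in opposite orientation. Its log2 fold change was 3.94, that of Chac1, a glutathione-degrading enzyme, 3.23, and that of Asns, asparagine synthetase, 1.53, so that a match in the window went with rises of very different size.

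In the endoplasmic reticulum (ER) 20 of 36 chaperone and unfolded protein response genes rose and 7 fell (median 0.31), or 13 and 13 by the upper quartile and 11 and 13 by library totals, and 18 and 4 without the libraries with muscle transcripts. Dnajb9, a co-chaperone, was at 25.7, 29.2 and 24.8 CPM at 30 °C and 239, 259, 218 and 250.5 CPM at 4 °C (log2 fold change 3.18, SE 0.14, adjusted p = 6.97e-11). Hspa5, which encodes the chaperone BiP (1.18), Canx, calnexin (1.27), Atf6, a stress sensor (1.29), and Manf (1.20) rose, whereas Xbp1 (−0.83), the disulfide isomerase Pdia4 (−1.43) and the degradation factors Edem1 (−0.86) and Edem2 (−1.34) fell. The ER stress element, CCAAT and CCACG kept 9 bases apart, lay in the windows of 9 of 30 of these genes, against 0.177% of all tested genes. As the list was chosen for this response, that comparison is no test of an excess. Of the 9 genes with the element 6 rose and 1 fell, against 9 and 5 of the 21 without it. A pair of them, chosen after the values were seen, have the element's fixed letters in capitals.
Hspa5, chr2:34772005-34772063, + strand, element from −65: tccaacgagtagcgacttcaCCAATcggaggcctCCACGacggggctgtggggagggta
Canx, chr11:50325780-50325838, − strand, element from −145: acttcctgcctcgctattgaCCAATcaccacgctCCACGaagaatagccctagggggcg

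Cytosolic heat shock proteins rose in 23 of 28 cases and fell in 2 (median 1.81), or 21 and 4 by library totals. The main counts were 82.1% and 7.1% of the list, against 31.0% and 32.1% of all tested genes. Hspa8, the constitutive HSP70, was at 713, 679 and 706 CPM at 30 °C and 5345, 6310.1, 6046 and 5629 CPM at 4 °C (log2 fold change 3.06, SE 0.14, adjusted p = 1.04e-10). Hsp90aa1, the inducible HSP90, was at 162, 146 and 123 CPM at 30 °C and 1817, 1417, 1796 and 1935 CPM at 4 °C (log2 fold change 3.60, SE 0.17, adjusted p = 1.12e-10). Both rose without overlap. Hspa1a (5.48) and Hspa1b (5.33), the inducible HSP70 genes, rose from 0.421 and 1.02 CPM, but they are near-identical copies whose reads may be split. Hsph1 (3.52), Bag3 (2.92) and Chordc1 (1.82), partners of HSP70 and HSP90, rose, and Fkbp4 (−0.29) and Hspa14 (−0.76) fell. The call of Fkbp4 was lost without library 1 or 2 at 30 °C or library 1 or 2 at 4 °C (adjusted p 0.0628 to 0.0897 without any 1 of 4 libraries). The heat shock element lay in the windows of 3 of 23 of these genes, against 0.593% of all tested genes. Here too the list was chosen for the response, so an excess was not tested. The element's overlapping copies in Chordc1, in capitals, were chosen after the values were seen.
Chordc1, chr9:18292243-18292286, + strand, copies from −4: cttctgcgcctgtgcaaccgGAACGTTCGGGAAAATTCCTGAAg

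All 34 tested genes of the proteasome list rose, subunits and their regulators, with a median of 0.86 and a span of 0.33 to 1.80, where 31.0% of all tested genes did. With upper-quartile scaling 29 rose and with library totals 25, and none fell under either. Psmd11, a lid subunit, was at 64.8, 63.2 and 66.7 CPM at 30 °C and 223, 222, 233 and 228 CPM at 4 °C (log2 fold change 1.80, SE 0.07, adjusted p = 4.24e-11). Psma1, of the core, was at 86.3, 95.9 and 89.3 CPM at 30 °C and 263, 272, 306 and 267 CPM at 4 °C (log2 fold change 1.61, SE 0.11, adjusted p = 3.17e-09). Neither overlapped, and the base ATPases Psmc4 (1.59) and Psmc2 (1.46) were close.

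Mitochondrial chaperone, protease and import genes rose in 21 of 28 cases and fell in 1 (median 0.59), or 15 and 6 by library totals. The import genes Timm8a1 (2.10), Tomm70a (1.71) and Timm10 (1.53) and the chaperonin pair Hspe1 (1.67) and Hspd1 (1.11) rose, and the protease Oma1 (−1.10) fell. Lysosome and autophagy genes rose in 31 of 51 cases and fell in 9 (median 0.53), or 22 and 15 by library totals and 26 and 4 without the libraries with muscle transcripts. Sqstm1, the autophagy receptor p62, was at 168, 161 and 194 CPM at 30 °C and 762, 706, 603 and 989.6 CPM at 4 °C (log2 fold change 2.14, SE 0.20, adjusted p = 1.8e-07). The proton pump subunit Atp6v1h (2.27), the nutrient-sensing GTPase Rragd (2.35) and the galactosidase Gla (2.44) rose and the cholesterol exporter Npc1 (−0.77) fell.

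Every one of the 19 clock genes was called, 10 higher and 9 lower (median 0.82), and the same counts were found with both other scalings. Arntl, which encodes BMAL1, the activator at the core of the clock, was at 2.85, 4.20 and 1.92 CPM at 30 °C and 43.03, 46.2, 38.6 and 44.9 CPM at 4 °C (log2 fold change 3.85, SE 0.24, adjusted p = 4.45e-09). Per3 was at 101, 80.3 and 107 CPM at 30 °C and 5.07, 5.42, 4.89 and 8.09 CPM at 4 °C (log2 fold change −4.03, SE 0.16, adjusted p = 3.52e-11). The first rose and the second fell in every cold library. Nfil3 (3.32), Cry1 (2.499), Per1 (2.06), Per2 (1.604) and Clock (1.55) rose. Dbp (−3.44), Bhlhe40 (−2.57), Hlf (−1.66) and Nr1d1 (−1.27), outputs and repressors of the clock, fell. No source used here gives the hour at which warm and cold tissue was taken, so cold and time of day cannot be told apart for these genes.

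Among cold-inducible RNA-binding proteins and splicing kinases 13 of 21 rose and 3 fell (median 0.41), or 9 and 6 by the upper quartile, 6 and 7 by library totals and 11 and 1 without the libraries with muscle transcripts. Rbm3 and Cirbp, the paired cold-shock proteins of cultured cells, moved apart. Rbm3 was at 42.9, 53.8 and 57.9 CPM at 30 °C and 107, 126, 115 and 89.02 CPM at 4 °C (log2 fold change 1.08, SE 0.15, adjusted p = 9.86e-06). Cirbp was at 33.7, 44.5 and 42.3 CPM at 30 °C and 9.17, 13.3, 17.9 and 6.53 CPM at 4 °C (log2 fold change −1.78, SE 0.27, adjusted p = 6.75e-05). The first rose and the second fell, without overlap.

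Secreted factors of brown fat rose in 12 of 24 cases and fell in 8 (median 0.17), with 11 and 11 by either other scaling and 9 and 5 without the libraries with muscle transcripts. Inhbb, an activin subunit, was at 3.43, 2.79 and 2.66 CPM at 30 °C and 53.1, 36.5, 54.9 and 17.7 CPM at 4 °C (log2 fold change 3.77, SE 0.49, adjusted p = 3.29e-05). Fgf9 (3.72), with low counts, rose, and Igf1 (−1.89) and Ptgds, a prostaglandin synthase (−1.63), fell. Vegfa was at 706, 684 and 789.9 CPM at 30 °C and 768, 696, 677 and 626 CPM at 4 °C and did not pass the test (log2 fold change −0.07, SE 0.09, adjusted p = 0.527), but was called lower by the upper quartile (−0.30) and library totals (−0.46). In the list of adipokines and white adipocyte markers 4 of 20 rose and 6 fell (median −0.02), with 4 falls without library 2 at 30 °C or library 1 or 4 at 4 °C and 2 rises without the libraries with muscle transcripts, and Lep was the largest fall. Adiponectin, Adipoq, was at 935, 1166 and 1033 CPM at 30 °C and 598, 701, 933 and 544 CPM at 4 °C. It fell (log2 fold change −0.59, SE 0.21, adjusted p = 0.0217), a call that was lost without library 2 at 30 °C or library 1 or 4 at 4 °C (log2 fold change −0.50 to −0.48).

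Insulin signalling genes rose in 16 of 30 cases and fell in 10 (median 0.39), or 9 and 10 by library totals. The docking proteins diverged. Irs2 was at 26.8, 46.1 and 28.5 CPM at 30 °C and 263, 381, 407 and 253 CPM at 4 °C (log2 fold change 3.27, SE 0.29, adjusted p = 6.18e-07). Irs3 was at 19.9, 18.7 and 16.2 CPM at 30 °C and 1.42, 1.29, 0.929 and 1.73 CPM at 4 °C (log2 fold change −3.75, SE 0.30, adjusted p = 5.11e-08). Irs2 rose and Irs3 fell, and the regulatory subunit of phosphatidylinositol kinase Pik3r1 (−2.24), the kinase Akt2 (−1.27) and Tbc1d4 (−1.45), which controls the release of glucose transporters, fell. Socs2 (4.54), a cytokine signal inhibitor, and Foxo1 (1.81) rose. Of 35 BMP and transforming growth factor (TGF) beta genes 12 rose and 10 fell, or 11 and 13 by the upper quartile and 8 and 16 by library totals (median −0.18). The main counts, 34.3% and 28.6% of the list, were close to the shares over all tested genes, 31.0% and 32.1%. Smad7 (1.84), an inhibitor of the pathway, rose and the receptors Tgfbr2 (−1.22) and Acvr2b (−2.22) fell. Cholesterol synthesis and efflux genes fell in 12 of 24 cases and rose in 8 (median −0.22), with Fdft1, squalene synthase, at 157, 135 and 135 CPM at 30 °C and 22.2, 22.2, 25.4 and 18.8 CPM at 4 °C (log2 fold change −2.69, SE 0.16, adjusted p = 1.4e-09). By the upper quartile 5 rose, by library totals 3, and without the libraries with muscle transcripts 3 rose and 8 fell. Branched-chain amino acid catabolism had 4 of 23 genes higher and 7 lower (12 lower by the upper quartile and 18 by library totals, and 2 higher and 5 lower without the libraries with muscle transcripts), led by Bcat1 (1.81) and by Ppm1k (−0.85), which activates the pathway's dehydrogenase.

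Endothelial genes changed in both directions. Of 18 markers 10 rose and 5 fell (median 0.74), and their summed level was 1230 to 1395 CPM at 30 °C and 2233 to 2598 CPM at 4 °C. Sox17, an arterial transcription factor, was at 12.3, 7.81 and 12.6 CPM at 30 °C and 96.5, 130.5, 141 and 78.6 CPM at 4 °C (log2 fold change 3.35, SE 0.24, adjusted p = 3e-08). Cldn5, the junction protein of endothelium, was at 46.5, 34.7 and 29.3 CPM at 30 °C and 297, 248.9, 374 and 234 CPM at 4 °C (log2 fold change 2.97, SE 0.23, adjusted p = 6.69e-08). Both rose, with Pecam1 (1.43), Eng (1.29) and Kdr (1.24), while Tie1 (−1.01), Erg (−0.99) and Emcn (−1.20) fell. Among 30 angiogenic ligands and receptors 14 rose and 10 fell, or 12 and 12 by the upper quartile (median 0.12), or 9 and 9 without the libraries with muscle transcripts. Angpt1 (−3.78), a ligand that stabilises vessels, fell, and Thbs1 (3.30), an inhibitor of angiogenesis, and Ednrb (2.39), an endothelin receptor, rose. In bulk tissue, fewer cells of a type and less RNA per cell cannot be told apart.

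Markers of other cell types moved with the groups to different extents, as the bar plot of summed levels shows. Macrophage markers rose in 8 of 16 cases and fell in 1 (5 rises without library 1 or 3 at 30 °C or by the upper quartile, and 4 by library totals), their sum being 203 to 303 CPM at 30 °C and 309 to 562 CPM at 4 °C, where library 1 was the highest. Cd163 (1.76), Clec10a (1.85) and Lyve1 (2.06) rose, while Lyz2 (0.11), the most abundant, did not pass the test. T and B cell markers were low, at 15.2 to 24.0 CPM in sum at 30 °C, 19.4 CPM in library 1 at 4 °C and 5.08 to 5.69 CPM in the other cold libraries. Of 14 markers 0 rose and 5 fell (10 without the libraries high in interferon genes and 1 without those with muscle transcripts), among them Ighm (−2.02, and −2.62 without library 1 at 4 °C). Of 24 interferon genes 0 were called by edgeR and 2 rose by DESeq2. Without WT library 4 at 4 °C, high in the same genes, 7 rose and 1 fell, and without it and library 1 at 4 °C together 4 rose and 7 fell. All 7 tested red blood cell transcripts rose, with Hbb-bs at 157, 141 and 224 CPM at 30 °C and 294, 359.97, 357 and 359 CPM at 4 °C, globin genes being copies that can share reads, and 4 rose by library totals and none was called without the libraries carrying muscle transcripts. Fibroblast genes were mostly not called (3 of 18 higher and 4 lower, or 1 and 6 by the upper quartile and 1 and 10 by library totals), and neither were muscle markers (0 higher and 1 lower of 20, or 4 lower without library 3 at 4 °C), which Myh4 shows with 23.3, 7.33 and 0.0369 CPM at 30 °C and 0, 0, 141 and 0 CPM at 4 °C. The part of these cell types in the results was not tested.

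**Figure D4:**
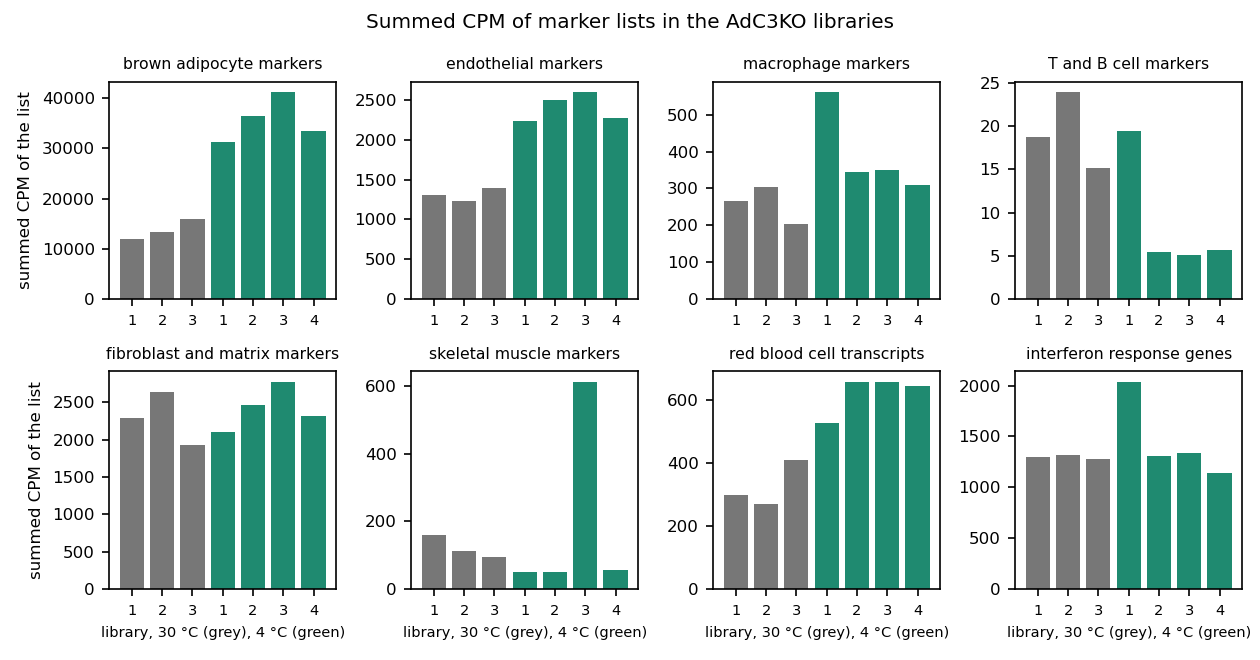
Summed CPM (vertical axis) of 8 marker lists in the 3 warm (grey) and 4 cold (green) AdC3KO libraries, 1 bar per library. Cold library 3 stands apart in skeletal muscle markers and cold library 1 in interferon genes, macrophage markers and, among cold libraries, T and B cell markers, while endothelial and red blood cell sums are higher in all 4 cold libraries.

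To ask what of this response is particular to the knockout, the log2 fold change of AdC3KO was compared with that of WT in the interaction term, for which 0 genes (0%) passed by edgeR and 0 by DESeq2. At an unadjusted p below 0.05 there were 349 genes by edgeR and 342 by DESeq2. The lowest adjusted p was 0.9999. Of the genes called in AdC3KO, 8856 were called in WT with the same sign and 0 with the opposite one, while 1194 were called in AdC3KO alone and 931 in WT alone, none of which differed by the interaction. Across genes, which are not independent replicates, the log2 fold changes of the genotypes had a Spearman correlation of 0.924 and a Pearson correlation of 0.923, from separate warm and cold libraries. The median size of the interaction over all genes was 0.16, with a median SE of 0.27, so that a difference of this size was not detectable for a typical gene.

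None of the genes named above passed the interaction test. Ucp1 differed between AdC3KO and WT in log2 fold change by 0.12 (SE 0.22), Dio2 by −0.10 (SE 0.23), Ppargc1a by 0.05 (SE 0.31) and Elovl3 by 0.83 (SE 0.58). Of the droplet genes, Cidea differed by 0.06 (SE 0.20), Cidec by −0.39 (SE 0.27), Plin1 by −0.24 (SE 0.22) and Plin2 by −0.05 (SE 0.19). Lep, Fgf21 and S100b had wider errors, at −1.30 (SE 0.79), 0.16 (SE 1.21) and 0.46 (SE 0.31). The lowest unadjusted p belonged to Gm8355, a predicted gene (1.74, adjusted p = 0.9999), and to Pitpnm2os2, an antisense gene (3.02, adjusted p = 0.9999). Next came Hpgds, the hematopoietic prostaglandin D synthase, with a log2 fold change of −2.33 in AdC3KO and −0.71 in WT. Gm44007, beside the knocked-out locus, was at 6.74 in AdC3KO and 2.98 in WT, where no library reached 1 CPM, a difference of 3.76 (SE 2.32) that did not pass. Myh4, at 1.77 and −2.89, lies off the diagonal of the plot of both genotypes together with other muscle genes, which were high in cold library 3 of AdC3KO and in warm library 3 of WT.

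**Figure D5:**
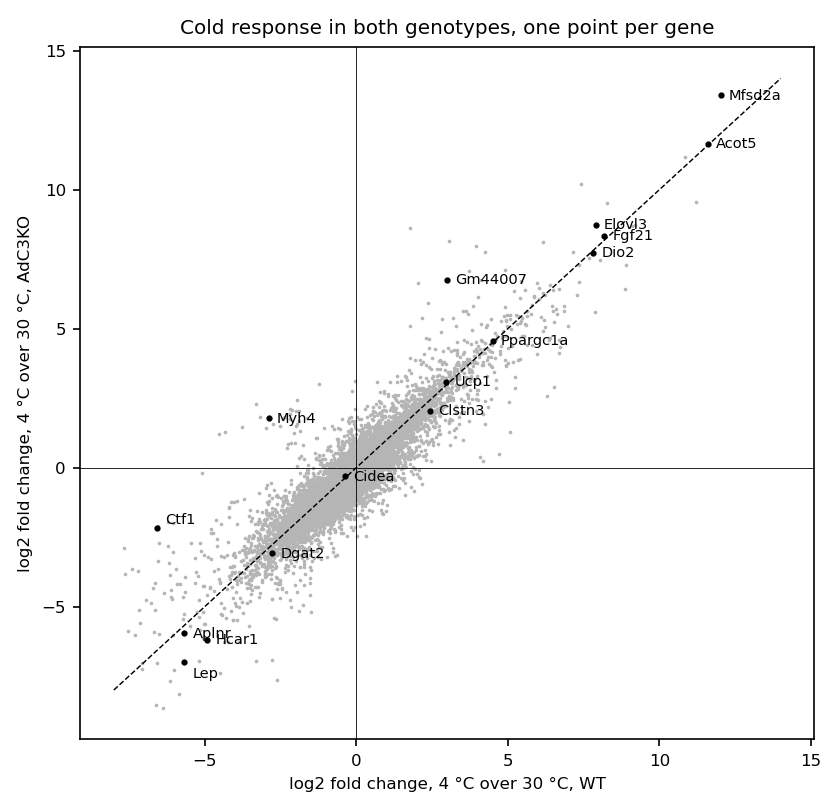
Log2 fold change of 4 °C over 30 °C in AdC3KO (vertical axis) against the same in WT (horizontal axis), 1 grey point per tested gene, labelled genes in black, with the line of equal response dashed. Most points follow the line (Spearman correlation 0.924), and Gm44007 and the muscle gene Myh4 lie apart from it although none passed the interaction test.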

How the data were processed

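Per the labels' protocols, RNA from BAT was made into sequencing libraries with a commercial kit, trimmed with Trimmomatic, aligned by STAR to GRCm38/mm10 and counted by HTSeq-count. The deposited table holds whole-number counts per gene. No source used here gives the strand setting, annotation release or tool versions. Of 55471 gene rows 55230 had a symbol in GENCODE M21. The 5 summary rows, including reads outside genes (5.95% to 8.19%) and on several genes (5.53% to 6.03%), stayed out of all totals.

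All 14 libraries entered 1 edgeR 4.0.16 quasi-likelihood fit (R 4.3.3; limma 3.58.1) of 4 group means, after filterByExpr (minimum count 10, 15949 genes kept) and TMM. The cold contrast and the interaction were adjusted by Benjamini-Hochberg. On simulated counts, with 67, 67 and 66 of 15549 genes changed 1.5-, 2- and 4-fold, the fit recovered 28.4%, 70.1% and 98.5% of them. False calls for the cold contrast numbered 3. In the data 10050 of 15949 genes were called, so these rates cannot be carried over to the cold response. Counting intervals are exact at 95% and cover counting error only. Replicate numbers did not pair AdC3KO libraries (correlations of deviations 0.05, −0.01 and −0.13). Alternatives were DESeq2 1.42.0, upper-quartile scaling or library totals, other filters, a fit without robust estimation, a block for the replicate number, a fit of the 7 libraries alone and left-out libraries.

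Members and lists were chosen with earlier results of these data known. Genes were named by rule: 14 fixed genes, the 15 largest rises and falls in fold and the 8 in CPM, up to 4 rises, 4 falls and the 2 most abundant members of each list, and the 5 lowest interaction p. A few genes that this rule names are not reported here. Named outside it, after their values were seen, were Aars, Akap1, Asns, Bag3, Cd36, Chac1, Chordc1, Clock, Cox8b, Creb1, Ddit3, Dusp1, Dusp6, Egr1, Fitm2, Fos, Gadd45a, Gars, Gpat4, Gpihbp1, Hk2, Jun, Junb, Lipe, Mki67, Mlxipl, Nars, Nr1d1, Pde3a, Pde4a, Pde4b, Pde4d, Pde8a, Per2, Pex13, Plin4, Prkaca, Prkar1a, Psmc2, Pygb, Slc16a1, Slc25a20, Slc2a4, Slc7a1, Slc7a11, Xbp1 and mt-Rnr2.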

Additional observations from a re-analysis of the deposited data

Results flagged for a closer look

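Among the 272 genes named, 1 cold AdC3KO library stood apart from the other 3 for 12 genes. Its gap to the nearest library was above the 95% critical value of Dixon's ratio, which chance exceeds in about 1 in 20 groups. The number flagged was no larger than that rate alone gives for 272 genes, so a single flag does not show an unusual library. Library 3 was high for Myh4 (141 CPM against 0), Pfkm (89.1 CPM against 56.8 to 60.4), Cidec (767 CPM against 608 to 627), Des (149 CPM against 91.8 to 98.3) and Lmf1 (30.6 CPM against 20.3 to 22.0). Library 2 was high for Dio2 (4064 CPM against 3453 to 3481) and Tomm70a (291 CPM against 276 to 277) and low for Mbp (15.6 CPM against 21.8 to 22.7). Library 4 was high for Hmox1 (828 CPM against 399 to 457) and Per3 (8.09 CPM against 4.89 to 5.42). Library 1 was low for Hbb-bs (294 CPM against 357 to 360.0) and Pde8a (49.1 CPM against 56.1 to 57.3).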

How the results depend on the processing

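The count of rises was 4937 and of falls 5113. Both stayed within 1.5 times under every alternative except library totals alone, where 2985 rose, and the fit without the 5 libraries with muscle transcripts, where 3279 fell. Leaving out 1 library at a time gave 4534 to 5164 rises and 4683 to 5154 falls. The interaction gave 0 genes under every alternative run. Of all 10050 calls of the cold response, 9950 were kept by DESeq2, 8850 by the upper quartile and 8098 by library totals, where 4 rises became falls. Of the 6 h response, 224 of 253 named and called genes kept their call under every alternative, and without the libraries with muscle transcripts, where 1 warm AdC3KO library was left and was assumed to vary like the other groups, 25 lost it. Many of the named genes were chosen for large changes, so the share of them that kept a call does not stand for all called genes. Cox8b turned from 0.01 to −0.38 with library totals. With the replicate block 4772 genes rose and 5017 fell (4783 and 4940 in the 7 libraries alone), and the calls lost were Car3 (adjusted p = 0.0508), Gadd45a (adjusted p = 0.0522), mt-Atp6 (0.0721), mt-Co3 (0.0764) and mt-Nd4l (0.0767), while Egr1 passed (adjusted p = 0.0077). In the blocked fit of the 7 libraries, Irf4 (adjusted p = 0.0555), Scd2 (adjusted p = 0.0676) and the same 3 mitochondrial genes (adjusted p 0.112 to 0.163) lost theirs. Not every library correlated best with its own number. The libraries' depth, 22.49 to 29.03 M counts, leaves genes near 1 CPM with few counts, and 39522 genes were not tested.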

Other observations

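Of 24 tested cell cycle genes 2 rose and 5 fell (median −0.06), or 2 and 1 without the libraries with muscle transcripts. Their summed level was 176 to 215 CPM at 30 °C and 685 to 804 CPM at 4 °C, most of it from Cdkn1a, which encodes the cell cycle inhibitor p21 and was at 66.1, 30.1 and 28.3 CPM at 30 °C and 590.2, 610.4, 681 and 539.8 CPM at 4 °C (log2 fold change 3.87, SE 0.27, adjusted p = 3.42e-08). Mki67, the usual marker of dividing cells, chosen after its values were seen, was at 5.69, 3.87 and 4.54 CPM at 30 °C and 9.29, 4.48, 2.59 and 6.41 CPM at 4 °C, with overlapping groups (log2 fold change 0.28, SE 0.56, adjusted p = 0.681). Tyms, an enzyme of thymidylate synthesis, rose (1.01) and Ccnd2, a D-type cyclin, fell (−0.56).

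Glia and mural cell genes moved in both directions. Of 12 Schwann cell markers 2 rose and 5 fell (median −0.38; 0 rose by either other scaling or without the libraries with muscle transcripts), in a summed level of 182 to 219 CPM at 30 °C and 185 to 196 CPM at 4 °C. Erbb3, the neuregulin receptor partner of Schwann cells, was at 12.04, 12.2 and 9.15 CPM at 30 °C and 1.75, 2.15, 2.30 and 1.94 CPM at 4 °C (log2 fold change −2.45, SE 0.18, adjusted p = 1.08e-08). Mbp, a myelin protein, fell (−0.81) and Pmp22, another, rose (0.52). Of 12 pericyte and smooth muscle markers 4 rose and 3 fell (3 and 5 by either other scaling, and 2 and 3 without the libraries with muscle transcripts). Cspg4, a pericyte proteoglycan, was at 68.6, 51.6 and 52.2 CPM at 30 °C and 15.96, 13.1, 12.5 and 17.3 CPM at 4 °C (log2 fold change −1.96, SE 0.13, adjusted p = 3.92e-09), and Notch3 (−1.33) and Pdgfrb (−0.74) fell, while Des (1.28) and Mylk (0.88), contractile genes, rose.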
